A study of Arabidopsis thaliana with 17 samples.

Results

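The comparison described here is between the NRPD1-3xF variants that lack either the first or the second part of the CYC-YPMF motif of NRPD1, the largest subunit of RNA polymerase IV (Pol IV). It rests on 4 of the 17 samples of the series, 2 biological replicates of NRPD1-3xF AAA-YPMF (Mut9 in the labels) and 2 of NRPD1-3xF CYC-AAAA (Mut10), which were chosen by their labels alone. Small RNAs of Arabidopsis flowers were sequenced, and 24 nt siRNA levels were given for 12939 clusters, all of which were used. Both variants, and the intact NRPD1-3xF WT line used as their reference, were expressed from the NRPD1 promoter in the nrpd1-3 null background, and their NRPD1 carries a 3xFLAG tag (3xF). The wild type Col-0, the nrpd1-3 null mutant and the clsy quad mutant (with the alleles clsy1-7, clsy2-1, clsy3-1 and clsy4-1 combined), each with 2 replicates, give the levels with intact Pol IV, without NRPD1 and without the CLSY proteins. Whether the 2 replicates of a variant came from separate transgenic lines was not given in the sources used here, so the p-values below measure the spread between these samples. The question asked of the pair is whether the parts of the motif differ in how many siRNAs are left, and at which clusters.

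Pol IV is a plant RNA polymerase that makes short transcripts from silent, often repeated DNA. RDR2 copies them into double-stranded RNA and DCL3 cuts this into 24 nt siRNAs, which guide DNA methylation in the pathway called RNA-directed DNA methylation (RdDM). The CLSY proteins bring Pol IV to its target loci, and the CYC-YPMF motif of NRPD1 is where they dock.

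The codons that the variants change are shown first because they are the designed difference between the transgenes. The stretch below is the coding strand of residues 116 to 134 of the 1453 residues of NRPD1, with the replaced codons in capitals. It lies in 2 neighbouring coding exons, separated by an intron, at chr1:23360378-23360521 on the minus strand of TAIR10.
NRPD1 motif, coding strand: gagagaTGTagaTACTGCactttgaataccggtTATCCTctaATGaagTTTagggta
Counted from the first residue of NRPD1, AAA-YPMF carries C118A, Y120A and C121A, so 3 codons in the upstream exon are changed. CYC-AAAA carries Y127A, P128A, M130A and F132A, so 4 codons in the downstream exon are changed.

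Both variants had few siRNAs left, and AAA-YPMF had more of them than CYC-AAAA at the clusters that depend on Pol IV. To separate these, 31 clusters were set apart as kept in nrpd1-3, because their mean in the null mutant was at least 50% of that in Col-0 and at least 1 RPKM (24 nt reads relative to the length of the cluster and the size of the library). This class was chosen after the values were seen. Over the other 12908 clusters, the RPKM of the AAA-YPMF samples summed to 3591.6 and 4365.2, and that of the CYC-AAAA samples to 2091.6 and 2152.4. The nrpd1-3 samples summed to 1224.3 and 1490.2 over the same clusters, the clsy quad samples to 1418.3 and 1742.3, and NRPD1-3xF WT to a mean of 322426.6. All 4 variant samples were therefore above both null samples, and both AAA-YPMF samples were above both CYC-AAAA samples. Of the NRPD1-3xF WT sum, 1.23% ± 0.170 (SD, n = 2) was left in AAA-YPMF, 0.658% ± 0.0133 (n = 2) in CYC-AAAA and 0.421% ± 0.0583 (n = 2) in nrpd1-3. The ratio of AAA-YPMF to CYC-AAAA was 1.87, with 1.67 to 2.09 between single samples.

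Counted by cluster, both AAA-YPMF samples lay above both CYC-AAAA samples at 5558 of the 12939 clusters (43.0%) and below both at 492 (3.80%). At the remaining 6889 clusters the groups overlapped or tied, and 662 clusters were at 0 in all 4 samples. The median level over all clusters was 0.175 RPKM in AAA-YPMF and 0.075 RPKM in CYC-AAAA, and the median difference on the log2(RPKM + 1) scale was 0.113. These sums and medians are descriptions without a test, since 2 samples against 2 cannot go below p = 0.333 in an exact permutation test. The values are small in reads as well. Whole reads could be recovered at 7864 of the 12908 clusters, where the AAA-YPMF samples held 34835 and 44356 reads and the CYC-AAAA samples 20121 and 21655. The median of these 7864 clusters was 2 and 3 reads in the AAA-YPMF samples and 1 read in each CYC-AAAA sample. No read was seen at 21.9% and 15.7% of them in AAA-YPMF and at 36.6% and 38.1% in CYC-AAAA. Clusters without recovered reads are not covered. Of the 1121 clusters tested below, reads were recovered at 849, and of the 45 called higher in AAA-YPMF at only 10.

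**Figure D1:**
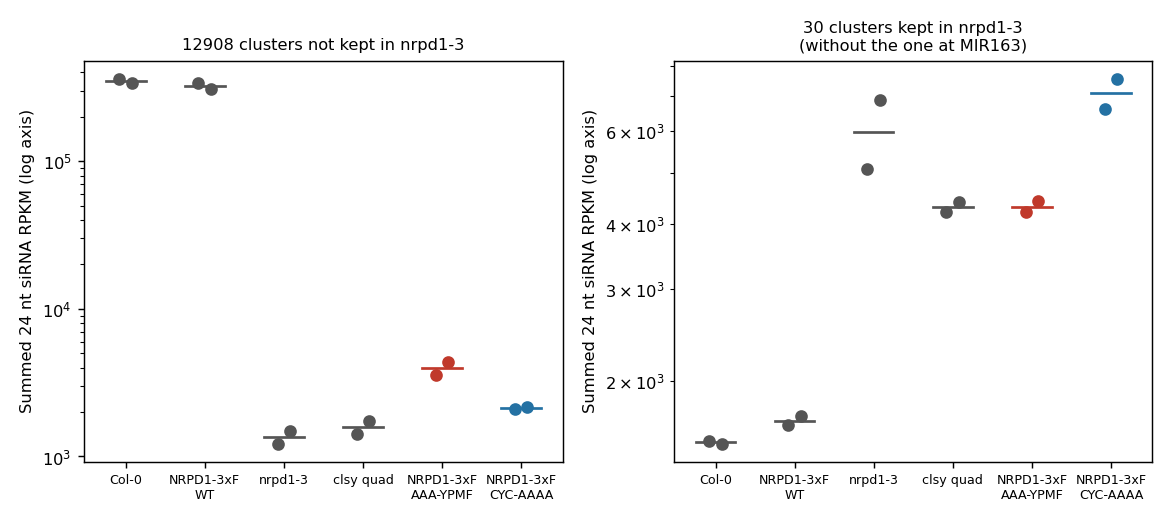
Summed 24 nt siRNA RPKM (log axis) in each sample (points) and the genotype means (lines), for the 12908 clusters not kept in nrpd1-3 (left) and for 30 clusters kept in nrpd1-3, without the one at MIR163 (right). Both AAA-YPMF samples, at 3591.6 and 4365.2, are above both CYC-AAAA samples on the left, and at 4212.5 and 4408.0 they are below both on the right.

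The remaining siRNAs were spread over clusters of every level, and the ratio of the variants changed little along them. When the 12908 clusters were split into deciles by their mean in NRPD1-3xF WT, the AAA-YPMF share of the NRPD1-3xF WT sum was 3.66% in the lowest decile and 0.869% in the highest. The CYC-AAAA share was 2.30% and 0.452% in the same deciles, and the nrpd1-3 share 1.72% and 0.336%. The level that ranks the deciles is also the denominator of these shares. In the lowest decile NRPD1-3xF WT summed to a mean of 2591.7 RPKM and Col-0 to 13117.5. Of the Col-0 sum, AAA-YPMF kept 0.723% in the lowest decile, 2.47% in the second and 0.765% in the highest. CYC-AAAA kept 0.455%, 1.34% and 0.398% there. The fall from the lowest to the highest decile therefore depends on the reference. The ratio of AAA-YPMF to CYC-AAAA stayed between 1.59 in the lowest decile and 1.99 in the ninth. The share of clusters with both AAA-YPMF samples above both CYC-AAAA samples was 19.7% in the lowest decile and 63.9% in the highest, where 825 of 1291 clusters were above and 28 below.

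**Figure D2:**
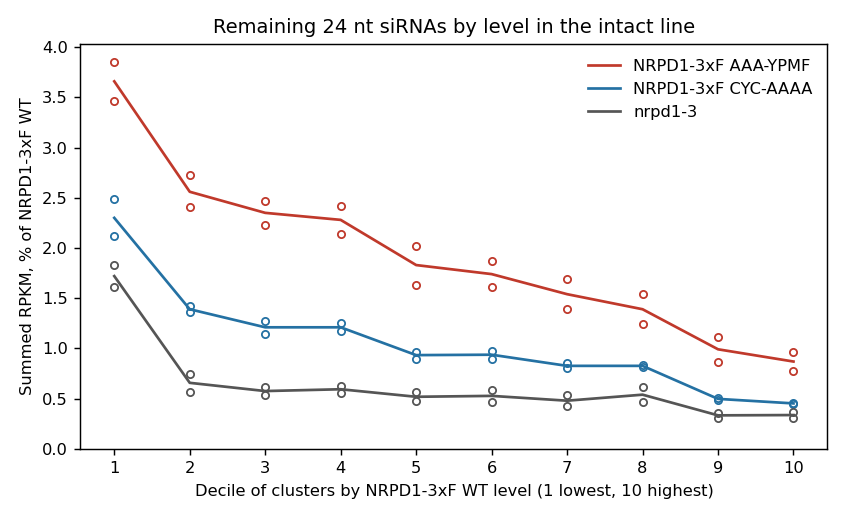
Summed RPKM as a percent of NRPD1-3xF WT (vertical axis) in deciles of the 12908 clusters by NRPD1-3xF WT level (horizontal axis), with a circle per sample and lines through the means of 2 samples. The AAA-YPMF line runs from 3.66% to 0.869% and lies above the CYC-AAAA line in every decile. The level that ranks the clusters is also the denominator of the percent.

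The clusters kept in nrpd1-3 went the other way. At the 30 of them other than the one at MIR163, the AAA-YPMF samples summed to 4212.5 and 4408.0 RPKM and the CYC-AAAA samples to 6626.4 and 7544.0, a ratio of AAA-YPMF to CYC-AAAA of 0.608 (0.558 to 0.665 between single samples). The nrpd1-3 samples summed to 5084.1 and 6895.5, the clsy quad samples to 4211.5 and 4403.4, and NRPD1-3xF WT to a mean of 1684.2. AAA-YPMF thus overlapped clsy quad, and CYC-AAAA overlapped nrpd1-3. Both CYC-AAAA samples were above both AAA-YPMF samples at 24 of the 31 kept clusters, and below both at 2, while over all clusters this was so at 3.80% and 43.0%. When each sample was rescaled to its 21 nt reads, the ratio was 0.707 at the kept clusters and 2.17 at the others.

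MIR163, whose microRNA targets methyltransferase transcripts, holds the highest cluster. The cluster at chr1:24884060-24884426 (merged_1_24884060) spans this gene and had 10633.40 and 10390.67 RPKM in AAA-YPMF, 16510.36 and 16187.88 in CYC-AAAA, and 14422.12 and 16969.42 in nrpd1-3. In Col-0 it had 4813.45 and 4955.83. CYC-AAAA was above AAA-YPMF in both samples, with a difference of AAA-YPMF and CYC-AAAA of -0.64 ± 0.05 (SE) on the log2(RPKM + 1) scale (adjusted p = 0.00261, limma). After rescaling to 21 nt reads this difference was -0.42 (adjusted p = 0.0179, limma). After rescaling each sample to the clusters kept in nrpd1-3 it was -0.10 (adjusted p = 0.306, limma). The reference of that rescaling is the kept clusters, MIR163 among them, so it removes the difference that is typical of them. MIR8121 holds the cluster at chr2:16588018-16588164 (merged_2_16588018), with 407.94 and 528.37 RPKM in AAA-YPMF against 1133.91 and 1501.84 in CYC-AAAA. It had 649.14 and 717.79 RPKM in nrpd1-3 and 87.14 and 91.72 in Col-0, and its CYC-AAAA samples were above those of every other genotype. The difference was -1.49 ± 0.17 (adjusted p = 0.00265, limma). After rescaling to the kept clusters it was -0.955 (adjusted p = 0.0106, limma), which is under the limits of a call. The annotated mature microRNAs of both genes are 24 nt long and lie inside these clusters, so they belong to the size class that was counted. They are printed for that reason, with the seed (bases 2 to 8) in capitals, and their seeds differ.
mature of MIR163: tTGAAGAGgacttggaacttcgat
mature of MIR8121: aAAGTATAatggtttagtggtttg
MIR163 gives the first at chr1:24884359-24884382 on the plus strand, and MIR8121 the second at chr2:16588077-16588100 on the minus strand of TAIR10.

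The other clusters of this height had the same direction. At the non-coding RNA gene AT4G26255, merged_4_13295908 had 1343.22 and 1455.11 RPKM in AAA-YPMF and 1974.53 and 2221.17 in CYC-AAAA. A second cluster near this gene, merged_4_13293636, had at most 0.24 RPKM in any variant sample. At AT1G09805, merged_1_24720965 had 463.95 and 506.12 RPKM in AAA-YPMF and 879.37 and 964.01 in CYC-AAAA. At MIR1887, merged_4_11370268 had 377.37 and 384.19 RPKM in AAA-YPMF and 640.42 and 815.07 in CYC-AAAA. The differences on the log2(RPKM + 1) scale were -0.58, -0.93 and -0.92, with adjusted p of 0.00773, 0.00265 and 0.00565 (limma), all under the size of 1 needed for a call. After rescaling to 21 nt reads they were -0.37, -0.71 and -0.71, with adjusted p of 0.0215, 0.00485 and 0.0125 (limma). After rescaling to the kept clusters, which include these, they were -0.048, -0.39 and -0.39. The adjusted p were then 0.511, 0.0129 and 0.0249 (limma). Of the 10 clusters whose mean in the variants reached 100 RPKM, 9 were kept in nrpd1-3, and all 10 were higher in both CYC-AAAA samples. Without MIR163 but with the other kept clusters, AAA-YPMF summed to 7804.1 and 8773.2 RPKM over 12938 clusters and CYC-AAAA to 8718.0 and 9696.4, a ratio of 0.900 (0.805 to 1.01 between single samples) that goes against the 1.87 found without the kept clusters.

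Single clusters were tested with limma on log2(RPKM + 1), over the 1121 clusters whose mean in the 4 samples reached 0.5 RPKM. With a difference of 1 or more and an adjusted p below 0.01, 45 clusters were higher in AAA-YPMF (4.01% of those tested) and 2 were higher in CYC-AAAA (0.178%). Without the filter on low values no cluster was called, and none was called when any 1 of the 4 samples was left out. In a single fit over the 12 samples 84 clusters were called higher in AAA-YPMF, including the 45, and 4 higher in CYC-AAAA. At an unadjusted p under 0.05, 442 clusters were higher in AAA-YPMF and 47 in CYC-AAAA. Among the tested clusters, both AAA-YPMF samples were above both CYC-AAAA samples at 707 (63.1%) and below both at 109 (9.72%). The median of the tested clusters was 1.01 RPKM in AAA-YPMF and 0.485 RPKM in CYC-AAAA, the latter under the limit of the filter. A cluster could pass the filter through the variant where it was higher. These shares and counts, the calls included, therefore follow in part from the filter.

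**Figure D3:**
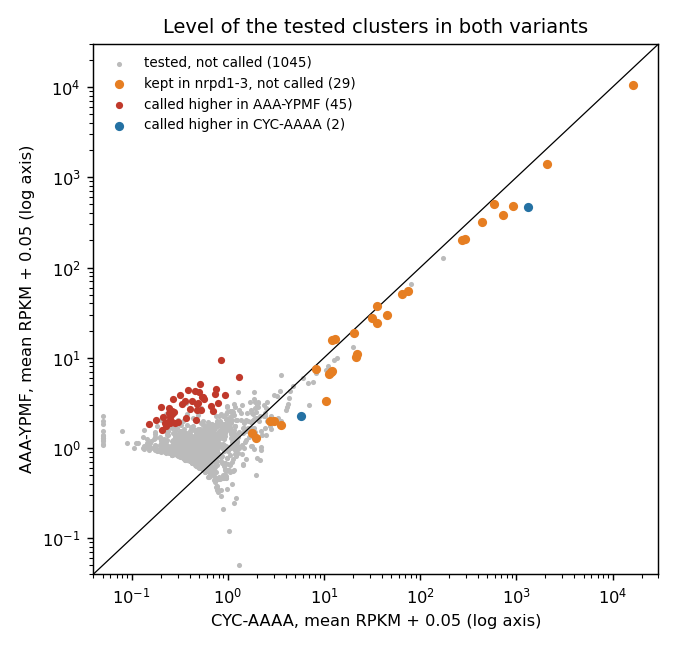
Mean RPKM + 0.05 of the 1121 tested clusters in CYC-AAAA (horizontal, log axis) and AAA-YPMF (vertical, log axis), each point 1 cluster, with the line of equal level. The 45 clusters called higher in AAA-YPMF lie between 1.54 and 9.36 RPKM in AAA-YPMF, while the clusters kept in nrpd1-3 lie mostly below the line, up to the one at MIR163.

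The 45 clusters higher in AAA-YPMF were strong siRNA sources in wild type. The call chose them for a large difference between the variants, so their levels in the variants are a description of what was chosen. Their median level was 2.71 RPKM in AAA-YPMF (1.54 to 9.36) and 0.315 RPKM in CYC-AAAA (0.1 to 1.25), and the fold between the variants had a median of 9.39 (3.93 to 18.8). In Col-0 their median was 498 RPKM, against 38.2 RPKM at the tested clusters and 11.4 RPKM at all clusters. In NRPD1-3xF WT it was 155 RPKM, against 43.3 and 12.9 RPKM. With few siRNAs left, a cluster low in the intact line can hardly reach a difference of 1 on the log2(RPKM + 1) scale. The high level of the 45 clusters therefore follows in part from the call. AAA-YPMF kept a median of 1.68% of the NRPD1-3xF WT level and CYC-AAAA 0.181%. Summed over the 45, the AAA-YPMF samples had 147.4 and 127.2 RPKM, the CYC-AAAA samples 19.52 and 14.68, and the means of clsy quad and nrpd1-3 were 47.22 and 7.705.

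The cluster with the largest difference, merged_4_13902361, starts 361 bp downstream of PYL10, which encodes an abscisic acid receptor. It had 10.57 and 8.14 RPKM in AAA-YPMF and 0.98 and 0.60 in CYC-AAAA, beside 0.34 and 0.14 in nrpd1-3, 2.95 and 2.30 in clsy quad, and 1136.59 and 1098.47 in Col-0. The variants did not overlap, CYC-AAAA was below clsy quad, and the difference was 2.53 ± 0.20 (adjusted p = 0.00261, limma). Its first 180 bases, chr4:13902361-13902540 on the plus strand, are printed to show what kind of sequence this is. The only CG site is in capitals.
merged_4_13902361, first bases: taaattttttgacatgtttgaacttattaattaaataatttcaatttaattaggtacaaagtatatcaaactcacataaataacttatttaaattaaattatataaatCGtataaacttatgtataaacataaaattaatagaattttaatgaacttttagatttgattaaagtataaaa
The first 500 bp hold 25.8% G and C and 12 cytosines in CG sites, counted on both strands. Over the 45 clusters the median of the first 500 bp was 30.6% G and C, against 31.6% in the 1116 tested nuclear clusters and 32.4% in all 12902 nuclear clusters.

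Other clusters with a large difference lay in and beside genes of different functions. Near the long non-coding RNA gene AT3G06675, merged_3_15680917 had 5.51 and 4.59 RPKM in AAA-YPMF and 0.57 and 0.35 in CYC-AAAA. The CYC-AAAA samples overlapped nrpd1-3 there, which had 0.38 and 0.35 RPKM. A weaker cluster on the other side of this gene, merged_3_15680269, had 0.00 and 0.19 RPKM in AAA-YPMF and 0 in both CYC-AAAA samples, and was not tested. In an intron of UGE2, a UDP-glucose epimerase gene, merged_4_12433510 had 4.43 and 3.27 RPKM in AAA-YPMF and 0.39 and 0.14 in CYC-AAAA. In an untranslated region of FLN1, a fructokinase-like gene of plastids, merged_3_20029846 had 3.35 and 2.07 RPKM in AAA-YPMF and 0.29 and 0.10 in CYC-AAAA. In both genes the cluster was higher in AAA-YPMF, by 1.94 ± 0.20 and 1.62 ± 0.22 on the log2(RPKM + 1) scale (adjusted p = 0.00265 and 0.00573, limma).

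Reads could be counted at a few of these clusters. Upstream of AT3G45680, merged_3_16770312 (chr3:16770312-16770636) had 3.09 and 2.54 RPKM in AAA-YPMF, from 21 and 18 reads, and 0.00 and 0.30 RPKM in CYC-AAAA, from 0 and 2 reads. The exact 95% Poisson interval of the 0 reads goes up to 3.69 reads. Upstream of AT2G03930, merged_2_1206413 had 6.11 and 5.92 RPKM in AAA-YPMF, from 80 and 81 reads, and 1.32 and 1.17 RPKM in CYC-AAAA, from 16 and 15 reads. This was the highest CYC-AAAA level among the 15 clusters with the largest differences, and here both CYC-AAAA samples were above clsy quad, at 0.38 and 0.68 RPKM.

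The rest of these 15 clusters had differences within the same range, which ran from 1.62 to 2.53 on the log2(RPKM + 1) scale with adjusted p from 0.00261 to 0.00573. They are merged_3_10006169 (nearest gene AT3G27140), merged_1_23453053 (AT1G63230), merged_4_5438259 (an intron of AT4G08545), merged_5_1409843 (VPS60.2), merged_5_9799932 (RECQSIM, a RecQ helicase gene), merged_4_2558980 (AT4G04990), merged_1_5970346 (AT1G17410), merged_2_2865159 (AT2G06950) and merged_4_12841020 (AT4G24973). Over the 15 clusters, single AAA-YPMF samples ranged from 2.07 to 10.6 RPKM and single CYC-AAAA samples from 0 to 1.32, a separation that follows from how the clusters were picked. Summed over the 15, AAA-YPMF had 69.53 and 57.69 RPKM and CYC-AAAA 7.63 and 5.70.

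**Figure D4:**
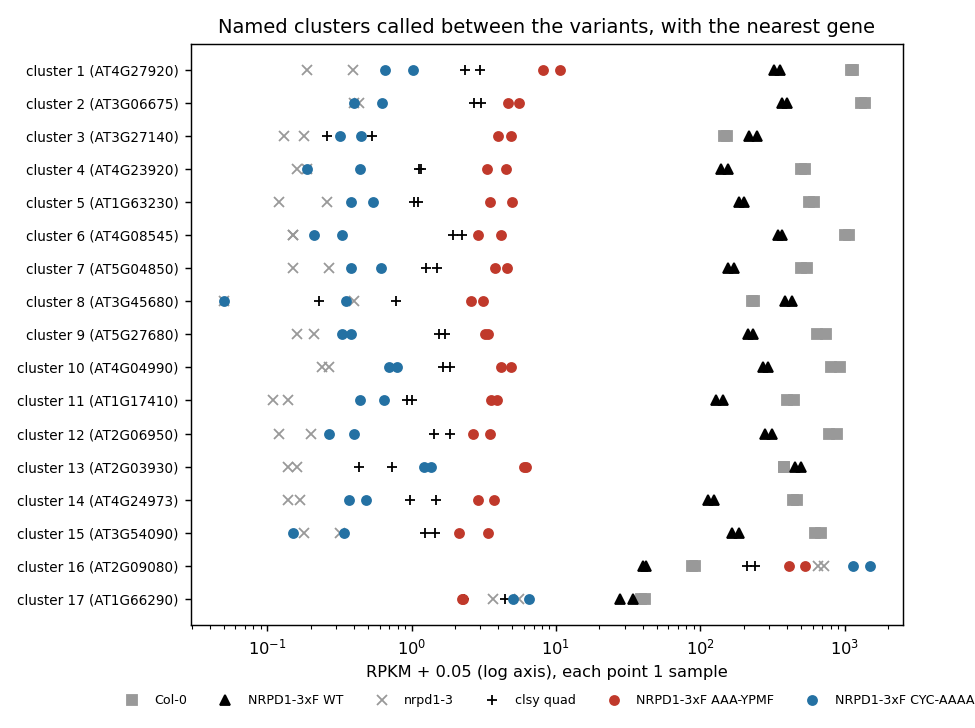
RPKM + 0.05 (log axis) in each of 12 samples at the 15 clusters with the largest differences among those called higher in AAA-YPMF (rows 1 to 15, by size) and at the 2 called higher in CYC-AAAA (rows 16 and 17), with the nearest gene. In the first 15 rows both AAA-YPMF points lie to the right of both CYC-AAAA points and far to the left of Col-0, and in the last 2 rows the order of the variants is reversed.

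The second cluster called higher in CYC-AAAA, beside the one at MIR8121, was merged_1_24714621 in a coding exon of AT1G66290. It had 2.19 and 2.22 RPKM in AAA-YPMF, 5.02 and 6.47 in CYC-AAAA, 3.61 and 5.49 in nrpd1-3 and 38.75 and 41.42 in Col-0. CYC-AAAA overlapped nrpd1-3, AAA-YPMF was below it, and the difference was -1.07 ± 0.17 (adjusted p = 0.00965, limma). At the limit of the calls in the other direction, merged_1_29611336 was called at 1.09 (adjusted p = 0.00833), while merged_4_1258152 at 1.22 (adjusted p = 0.0103) and merged_5_8813227 at 1.56 (adjusted p = 0.0232) were not. In all, 43 clusters had a difference of at least 1 in favour of AAA-YPMF and 3 of at least 1 in favour of CYC-AAAA without a call.

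The clusters called higher in AAA-YPMF had a further property that the call did not use, which is a low level in the intact NRPD1-3xF WT line compared with Col-0. The ratio of NRPD1-3xF WT to Col-0 had a median of 0.313 at the 45 clusters, 1.19 at the 1121 tested clusters and 1.31 at all clusters. It was at most 0.35 at 32 of the 45 and at 68 of the tested clusters, and above 1 at 11 of the 45. Since all 45 clusters lay in the highest decile by NRPD1-3xF WT level, this decile was split by the ratio. At its 64 clusters with a ratio of at most 0.35, the AAA-YPMF samples summed to 153.8 and 113.0 RPKM and the CYC-AAAA samples to 18.72 and 12.78. The ratio of the variants was 8.47 there (6.03 to 12.0 between single samples), and both AAA-YPMF samples were above both CYC-AAAA samples at 63 of the 64 clusters (98.4%, against 63.9% of the whole decile). Without the cluster near PYL10 the ratio was 8.29. Of these 64 clusters, 32 were among the 45 called, which were picked for a difference in this direction. The ratio of 8.47 and the 98.4% therefore restate the call in part, and the clusters of this class without a call were not summed apart.

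In the other classes of this decile the variants were closer. At a ratio of NRPD1-3xF WT to Col-0 of 1 to 1.5, 621 clusters summed to 396.1 and 547.5 RPKM in AAA-YPMF and to 225.7 and 200.1 in CYC-AAAA, which is 2.22 times as much in AAA-YPMF. Above 1.5, at 240 clusters, it was 2.88 times as much, and from 0.5 to 0.75, at 138 clusters, 2.94 times. From 0.35 to 0.5 it was 1.14, and 4.27 without merged_1_25278928 beside MIR839. From 0.75 to 1 it was 1.09, and 2.21 without merged_3_17728477. The order of the AAA-YPMF replicates also changed, since replicate 1 was higher than replicate 2 at the 64 clusters with a ratio of at most 0.35 and lower in each of the other classes. The median Col-0 level also fell along the classes. It was 482 RPKM at a ratio of at most 0.35, and 194, 167, 95.9, 72.8 and 48.4 RPKM in the classes of rising ratio. A low ratio and a high Col-0 level were not separated here. The differences between these classes were not tested, and the class limits were chosen after the values were seen.

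AAA-YPMF was higher along all 5 chromosomes. Pericentromeres were taken as the gene-poor run around the 500 kb window with the fewest protein-coding genes, and arms as the rest. At the 8233 arm clusters not kept in nrpd1-3, AAA-YPMF had 2603.8 and 3177.6 RPKM and CYC-AAAA 1593.6 and 1624.2, a ratio of 1.80 (1.60 to 1.99 between single samples). At the 4641 pericentromeric clusters, AAA-YPMF had 982.5 and 1180.8 RPKM and CYC-AAAA 492.3 and 522.0, a ratio of 2.13 (1.88 to 2.40). The ranges of these ratios overlap. The share of NRPD1-3xF WT left was 1.13% in arms and 1.65% in pericentromeres for AAA-YPMF, and 0.627% and 0.773% for CYC-AAAA. The median difference on the log2(RPKM + 1) scale was smaller in pericentromeres, at 0.0898 against 0.137 in arms. Pericentromeric clusters were also lower, with a median of 0.115 RPKM in AAA-YPMF against 0.215 in arms, and of 6.58 against 18.3 in NRPD1-3xF WT. The added 1 makes differences smaller at low levels. By chromosome the ratio was 1.79, 2.07, 1.62, 2.09 and 2.00 from chromosome 1 to 5, and at the 34 organelle clusters it was 1.03, with overlapping samples.

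In windows of 1 Mb, 113 of the 116 windows with at least 20 clusters had both AAA-YPMF sums above both CYC-AAAA sums. The median ratio was 2.08 and the range 0.830 to 3.99. The 3 windows under 1 each held a cluster that was also high in nrpd1-3, and without that cluster their ratios were 1.92, 1.20 and 1.78. In the lowest, merged_3_17728477 at AT3G07855 had a mean of 127.1 RPKM in AAA-YPMF, 171.6 in CYC-AAAA and 137.7 in nrpd1-3.

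**Figure D5:**
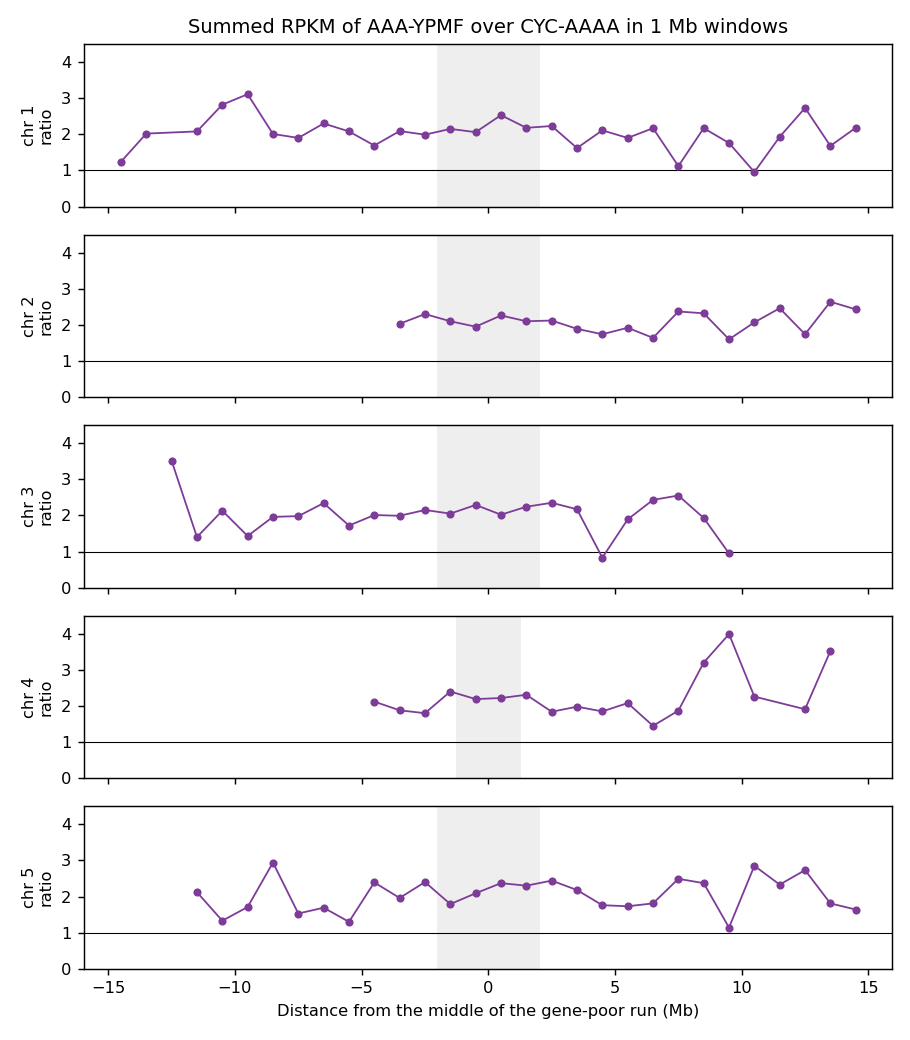
Ratio of the summed RPKM of AAA-YPMF to CYC-AAAA (vertical axes) in windows of 1 Mb with at least 20 clusters not kept in nrpd1-3, by distance from the middle of the gene-poor run (horizontal axis, Mb), with the pericentromere shaded and a line at equal sums. Of the 116 windows, 113 lie above 1 and the median is 2.08.

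The clusters called higher in AAA-YPMF were found on all chromosomes, with 9, 9, 11, 9 and 7 on chromosomes 1 to 5. Of the 45, 37 were in arms, which is 4.61% of the 802 tested arm clusters, and 8 in pericentromeres, which is 2.55% of the 314 tested there. A start inside or within 500 bp of a protein-coding gene was found for 23 of them (51.1%, against 38.1% of the tested clusters), near other non-coding RNA genes for 3 (6.67% against 8.21%) and near transposable element genes or pseudogenes for 3 (6.67% against 10.2%). A tRNA, rRNA, snRNA or snoRNA gene was near 1 of them (2.22% against 0.714%), a microRNA gene near 0 (2.41% of the tested clusters), and 18 were near none of these (40.0% against 45.7%). A cluster can be near genes of more than 1 kind, and these shares were not tested.

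By annotation, the ratio of AAA-YPMF to CYC-AAAA over the clusters not kept in nrpd1-3 was 2.20 at 5723 clusters away from annotated genes and 2.09 at 3173 near transposable element genes or pseudogenes. It was 2.07 at 50 near tRNA, rRNA, snRNA or snoRNA genes, 1.57 at 3816 near protein-coding genes and 1.11 at 608 near other non-coding RNA genes. At 49 clusters near microRNA genes the sums were lower in AAA-YPMF, at 118.8 and 122.5 RPKM against 132.7 and 150.4 (ratio 0.852), but the median difference was 0.129 in favour of AAA-YPMF, so the sum and the median differ in sign. No cluster started within 500 bp of a gene of trans-acting siRNAs. Near transposable element genes or pseudogenes both AAA-YPMF samples were above both CYC-AAAA samples at 48.3% of the clusters, against 43.0% of all clusters.

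The clusters near loci that are classical targets of RdDM were low in both variants. ONSEN is a heat-activated Copia retrotransposon that RdDM silences, and 14 clusters started within 2000 bp of the copies examined. Summed over these, AAA-YPMF had 1.89 and 2.99 RPKM and CYC-AAAA 0.85 and 0.92, beside a mean of 251.9 in NRPD1-3xF WT and 0.600 in nrpd1-3. Both AAA-YPMF samples were above both CYC-AAAA samples at 9 of the 14 (64.3%, against 43.0% of all clusters) and below both at 0 (3.80% of all clusters), and none of the 14 reached the level needed for the test. Among 6 clusters near SDC, FWA, QQS, APUM9 and EPF2, 2 had both AAA-YPMF samples above both CYC-AAAA samples (33.3%, against 43.0% of all clusters). At SDC, an F-box protein gene silenced by repeats in its promoter, merged_2_7680791 had 1.05 and 1.09 RPKM in AAA-YPMF and 0.67 and 0.78 in CYC-AAAA, beside 0.17 and 0.20 in nrpd1-3. It was the only one of them tested, and its difference of 0.26 ± 0.17 did not pass the test (adjusted p = 0.242, limma). At one of the 2 clusters near QQS, a gene known only from Arabidopsis thaliana, AAA-YPMF had 0.67 and 0.48 RPKM and CYC-AAAA 0.18 and 0.09. At FWA, a homeobox gene that delays flowering when active, the variants overlapped at 0.00 and 0.29 RPKM in AAA-YPMF and 0.16 and 0.15 in CYC-AAAA.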

How the data were processed

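Small RNA libraries of flowers were trimmed by the authors with cutadapt 1.18, mapped to TAIR10 with ShortStack and filtered to reads matching perfectly or with a 3′ mismatch. Use of the unique molecular identifiers was not given in the sources used here. The authors deposited RPKM of 24 nt reads, made with HOMER 4.10, for 12939 clusters defined in an earlier study. Columns were matched to samples by name, 0 value columns were left unused, and the CLSY3 libraries were not analysed here.

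The 4 variant samples were compared with limma 3.58.1 in R 4.3.3 (lmFit, eBayes with a trend, two-sided) on log2(RPKM + 1), for clusters whose mean reached 0.5 RPKM, with Benjamini-Hochberg adjustment over the 1121 tested. Calls needed a difference of 1 or more and an adjusted p below 0.01. Named were the 15 largest calls for AAA-YPMF, up to 10 for CYC-AAAA, the 5 clusters of highest mean, and those at MIR163, AT3G06675 and AT4G26255. SDC, FWA, QQS, ONSEN and the others near RdDM targets come from a list. The further clusters named at the limit of the calls, in the windows and in the classes by NRPD1-3xF WT level were chosen after their values were seen. The clusters, lists and tests were chosen with earlier results of these data known.

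Positions come from the start in each cluster's name, and genes and sequences from the RefSeq TAIR10.1 assembly. Cluster lengths were recovered where the RPKM of all samples fitted whole reads at 1 length and the library totals given by the study. This held for 7886 clusters (60.9%, median 517 bp). Tested on 400 simulated clusters, 290 were resolved and 281 of these (96.9%) were right. The simulated lengths were drawn from the recovered ones, so this share does not cover clusters whose length was not recovered. Intervals of reads are exact Poisson intervals and cover counting error only. On simulated data with known differences between the variants, 12.1% of the clusters changed by 1.5 on the log2 scale were called. It was 42.2% at 2 and 89.4% at 3. There were 2 false calls, counted at unchanged clusters only, while the 1245 clusters tested include the changed ones. These changes were made in RPKM before 1 was added, so at low levels a change of 1.5 can stay under the limit of the calls. The spread between simulated replicates was a fixed setting, not estimated from these samples, and the false calls hold for that setting only. Tables were made in Python 3.11.15 with pandas 2.3.3 and plots with matplotlib 3.10.9.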

Additional observations from a re-analysis of the deposited data

How the results depend on the processing

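The number of calls depended on the processing. The samples of the variants do not overlap at the 45 clusters called higher in AAA-YPMF, so that their sign says nothing of stability. The number called higher in AAA-YPMF (45) and in CYC-AAAA (2) was 45 and 3 at a mean of at least 1 RPKM, 37 and 3 at a pseudocount of 0.1, 30 and 1 after rescaling to 21 nt reads, and 61 and 0 after rescaling to the clusters kept in nrpd1-3. It was 84 and 4 in one fit over 12 samples, 84 and 3 at an adjusted p under 0.05, 23 and 0 without the variance trend, and 27 and 4 with limma voom on recovered reads, which tested 10 of the 45 and called 5 of them. It was 0 and 0 without a filter (smallest adjusted p = 0.0869, limma). With 1 replicate left out it ranged from 0 to 0 in both directions, where the lone sample of a group is assumed to vary like the others. The replicate numbers did not pair the samples, since the correlation of same-numbered deviations was -0.059 over tested clusters, and with the number as a block 0 and 1 clusters were called. Voom, the rescaling to kept clusters and all alternatives for single classes of clusters were added after seeing the data. Of 260 values for named clusters, 150 stayed on their side of the threshold, 110 lost the call and 0 reversed. The 150 include every value of 4 named clusters that had no call to lose, at MIR163, AT4G26255, AT1G09805 and MIR1887. Without the filter on low values, the other 17 all lost the call.

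The median difference of 0.113 was 0.601 at a pseudocount of 0.1, 0.404 over clusters of at least 0.5 RPKM and 0.175 after rescaling to kept clusters, and ranged from 0.0833 to 0.133 with 1 replicate left out. The sum ratio of 0.900 without MIR163 was 0.736 with it. It turned to 2.15 without the top 1% by mean (130 clusters), 1.87 without the kept clusters, 1.04 after rescaling to 21 nt reads and 1.30 after rescaling to kept clusters, and ranged from 0.848 to 0.953 with 1 replicate left out. At clusters not kept in nrpd1-3, the ratio of 1.87 became 2.17, 2.71 and 2.15 on 21 nt reads, on kept clusters and without the highest clusters (1.69 to 2.06 with 1 replicate left out). At the kept clusters, 0.608 became 0.707 on 21 nt reads (0.571 to 0.650). At a ratio of NRPD1-3xF WT to Col-0 of at most 0.35, 8.47 became 12.2 on kept clusters (7.12 to 10.4). The median of pericentromeres minus that of arms, -0.0463, was -0.115 at a pseudocount of 0.1 and -0.0753 on kept clusters (-0.0583 to -0.0255). The cause of these changes was not tested. The median cluster with recovered reads held 1 to 3 reads, and whether depth limited the calls was not tested.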

Other observations

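Some of the clusters kept in nrpd1-3 had unlike levels in nrpd1-3 and clsy quad, in either direction. At merged_3_16157970, upstream of AT3G44570, both clsy quad samples had 2.21 RPKM, while nrpd1-3 had 226.67 and 268.71, AAA-YPMF 198.76 and 204.30, and CYC-AAAA 259.02 and 281.04. Col-0 had 39.74 and 38.74 RPKM there, and NRPD1-3xF WT 112.47 and 112.21. The variants followed the null mutant at this cluster, although over all 30 kept clusters without MIR163 the AAA-YPMF sums overlapped those of clsy quad. At merged_5_16715937 clsy quad was the higher mutant, with 85.80 and 84.53 RPKM against 45.53 and 63.93 in nrpd1-3.

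Of the 31 kept clusters, 7 started inside or within 500 bp of microRNA genes. The one at MIR848, merged_5_4479376, lies in an intron of AT5G13890 and had 538.32 and 483.85 RPKM in AAA-YPMF and 600.47 and 555.80 in CYC-AAAA, a difference of -0.18 on the log2(RPKM + 1) scale that did not pass the test (adjusted p = 0.184, limma). At MBR1, a RING finger gene, merged_2_6777734 had 4.95 and 1.58 RPKM in AAA-YPMF and 8.91 and 11.83 in CYC-AAAA. Its difference of -1.53 was as large as that at MIR8121, with an adjusted p of 0.0326 (limma).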
